A study of Mus musculus with 6 samples.

Results

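Ifi27, Ifi27l2a, Ifi27l2b, Isg20, Ifi44, Ifi44l, Ifi35, Nmi, Xaf1 and Lgals3bp are interferon-stimulated genes (ISGs) that act outside the ISG15 conjugation machinery, and most of them encode small proteins. The 10 genes were chosen by symbol from the 53700 genes of the deposited expression table. Where a symbol had named several identifiers, the one with the highest mean expression would have been taken, but each of the 10 symbols had 1 identifier. The list was drawn up with earlier results of these data known, so counts over it are descriptions.

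The RNA came from SL4, a mouse CRC (colorectal cancer) cell line that expresses luciferase. The groups were pLV-Control (3 libraries) and pLV-SEMA6A (3 libraries), the latter from SL4 cells stably overexpressing SEMA6A, a transmembrane semaphorin, from a lentivirus. The labels call the first group SL4 cells without overexpression of SEMA6A. The study names these sequenced cells both SL4 and pLV-Control, so whether they carried an empty lentivirus is not settled. Expression is given as TPM, a unit that corrects for the length of a transcript and for the size of the library. The study describes 1 stable pLV-SEMA6A line, so SEMA6A and a difference between lines cannot be told apart, and nothing states that the 3 libraries of a group came from separate cultures.

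Type I interferon binds the receptor chains Ifnar1 and Ifnar2, and the kinases Jak1 and Tyk2 then phosphorylate STAT proteins. With Irf9 these form the ISGF3 complex, which binds the interferon-stimulated response element (ISRE) in the promoters of ISGs. Ifi27, Ifi27l2a and Ifi27l2b belong to the ISG12 family of small hydrophobic proteins, which are linked to mitochondria, the nuclear envelope and apoptosis. Isg20 is an exonuclease that degrades RNA and restricts viruses. Ifi44 and Ifi44l are cytoplasmic relatives with antiviral and antiproliferative activity. Nmi and Ifi35 share a domain type, bind each other and, once outside the cell, act as danger signals. Xaf1 binds Xiap and promotes apoptosis. Lgals3bp is a secreted glycoprotein that binds galectins and integrins.

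The pLV-SEMA6A libraries listed Sema6a at 98.7, 118 and 112 TPM and every pLV-Control library at 0 TPM, the direction of the labels. All TPM of a library added up to 977400 to 986444, and Pearson correlations of log2(TPM + 1) across genes were 0.967 to 0.979 within groups and 0.941 to 0.957 between them. TPM keeps no sequencing depth, so the reads behind a value are unknown. Of 9 colon epithelium markers only Lgals4 had a mean of at least 1 TPM, and Epcam and Cdx2 were listed at 0 in every library. The summed level of those 9 markers was 1.91 to 2.82 TPM in pLV-Control and 0.53 to 1.33 TPM in pLV-SEMA6A libraries. None of the 7 leukocyte markers and none of the 4 endothelial markers reached 1 TPM on average, and Cd3e, Adgre1 and Itgam were listed at 0 throughout. Of 5 fibroblast markers, 3 did, with summed levels of 5.8 to 7.25 TPM in pLV-Control and 7.45 to 8.47 TPM in pLV-SEMA6A libraries. What part these marker levels had in the results was not tested.

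To show what lies at the start of these genes, RefSeq promoter windows of 250 bases before to 50 bases after the start were searched on both strands. The windows, on build GRCm38.p6, covered 7 of the 10 genes and Isg15, the ubiquitin-like modifier on which the study centred. The ISG12 genes Ifi27, Ifi27l2a and Ifi27l2b had no window, so nothing is said here about their promoters. The full ISRE core, the letters GAAA followed by any 2 bases and GAAA again, was in none of the 7 genes, had 3 overlapping matches in Isg15, and was in 3.99% of all 27025 genes with a window. Pairs of GAAA with any other spacing were not searched for. The shorter form AANNGAAA, which every full core contains, was in 7 of 7 against 26.7% of all genes. The GAS form that STAT dimers bind, TTCNNNGAA, was in 2 of 7, Isg20 and Ifi35, against 9.55% of all genes. The 30 bases around a match are printed below for Isg15 and the 7 genes, on the gene's strand from 5′ to 3′, with capitals marking the bases of the full or shorter form read on either strand.

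Isg15: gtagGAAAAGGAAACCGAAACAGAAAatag
Ifi44: tacagagTTTCAGTTTTCGTTTcccgagca
Ifi44l: ttagttaacatTTTCATTTtactgtaacaa
Isg20: ttcttggaattTTTCCTTTtggacctaata
Xaf1: tgggcaaacacTTTCAGTTttgttttcctg
Ifi35: agaattcacagAAATGAAAgtggaagtgag
Nmi: atttttctagcAAAGGAAAagttcacatct
Lgals3bp: tgttttctgaaAATCGAAActaggtgaggt

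The Isg15 stretch is at chr4:156200871-156200900 on the minus strand, just before the start. That of Ifi44 is at chr3:151749943-151749972 on the minus strand, also just before the start, and is the only one of the 7 in which several shorter matches overlap. That of Ifi44l is at chr3:151763065-151763094 on the minus strand, and that of Isg20 at chr7:78913351-78913380 on the plus strand, the first of 3 Isg20 windows. The Xaf1 stretch, chr11:72301601-72301630 on the plus strand, and the Lgals3bp stretch, chr11:118401955-118401984 on the minus strand, both span the start. The Ifi35 stretch is at chr11:101448415-101448444 on the plus strand just after the start, and the Nmi stretch at chr2:51973364-51973393 on the minus strand, further before it. Among the printed windows, the RefSeq start lay 50 bases from the GENCODE gene start for Ifi44, 133 for Lgals3bp and 286 for Nmi. It lay 0 to 5 bases away for the others. The further Isg20 windows, not printed, had starts 341 and 811 bases away. A match of these letters is a description of the window and not a measured binding site.

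The groups were compared with limma as log2(TPM + 1), a scale that makes changes of low genes look smaller, in the 12510 genes averaging 1 TPM or more. P-values were adjusted over all of those genes. A gene was a differentially expressed gene (DEG) if its adjusted p was below 0.05 and its log2 fold change exceeded 0.5 in size. Of the 10 genes, 8 could be tested, and each of the 8 was above 1 TPM in every library. In 7 of the 8, Ifi27l2a, Ifi44, Xaf1, Lgals3bp, Nmi, Isg20 and Ifi35, expression fell in the pLV-SEMA6A group, where 10.8% of all tested genes were lower DEGs. None rose, against 5.12% higher DEGs among all tested genes. The eighth, Ifi27, fell by less than the minimum change, with 28.2% of all tested genes lower at the adjusted p alone. In all 8 the 3 pLV-SEMA6A libraries lay below the 3 pLV-Control libraries, as in 34.7% of all tested genes. The median log2 fold change was −1.48 over the 8 genes and −0.06 over all tested genes. In bulk RNA, fewer cells that express a gene and less RNA per cell cannot be told apart.

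**Figure D1:**
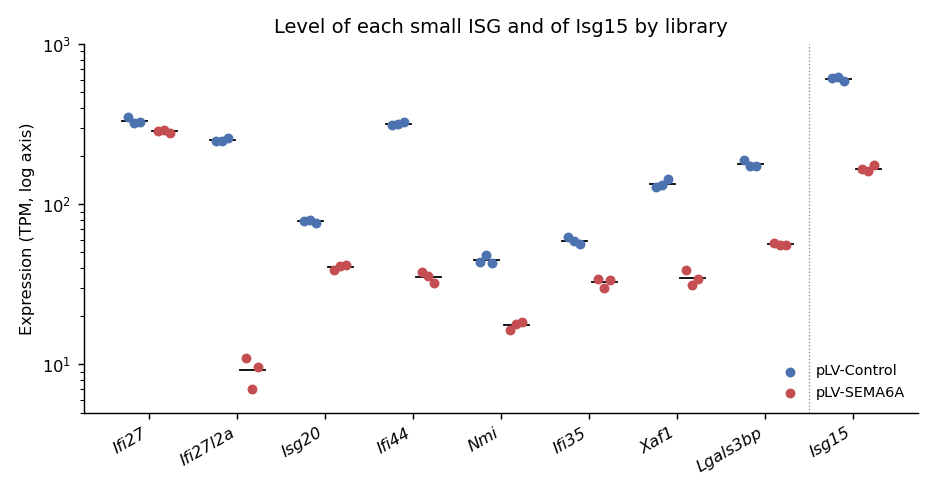
TPM on a log axis of the 8 tested genes and of Isg15, 1 point per library (3 pLV-Control, 3 pLV-SEMA6A), with black lines at the group means. In the 8 tested genes every pLV-SEMA6A point lies below every pLV-Control point, with the largest drop relative to its level for Ifi27l2a (253 against 9.23 TPM on average) and the smallest for Ifi27 (333 against 285 TPM).

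The ISG12 genes lie side by side on chromosome 12 and differed most among themselves. In GENCODE M21 (GRCm38), Ifi27 is at chr12:103434211-103440239 on the plus strand. Ifi27l2a (chr12:103442167-103443680, minus strand) begins 1928 bases on, and Ifi27l2b (chr12:103450898-103457223, minus strand) 7218 bases beyond that. The coordinates here and below are those of whole protein-coding genes, exons and introns included, matched by Ensembl identifier.

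The pLV-Control libraries held Ifi27l2a at 249, 249.7 and 260.5 TPM, and the pLV-SEMA6A libraries at 11.0, 7.03 and 9.63 TPM. It stood at 253 TPM ± 6.41 (SD, n = 3) in one group and 9.23 TPM ± 2.03 (SD, n = 3) in the other, or 3.65% of the pLV-Control mean. Its log2 fold change was −4.65 (SE 0.14, 95% interval −4.99 to −4.32, limma adjusted p = 3.4e-06). None of the 12510 tested genes had a lower log2 fold change, although Ifi27l2a ranked 2nd from the lowest without pLV-Control replicate 2 or 3 or pLV-SEMA6A replicate 1 or 3, and 14th with a pseudocount of 0.1 in place of 1.

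Ifi27 stood at 350.5, 321 and 327 TPM in the control libraries, against 288, 291 and 277 TPM with SEMA6A. The groups did not overlap, but the pLV-SEMA6A mean was 85.7% of the pLV-Control mean. The log2 fold change was −0.22 (SE 0.04, 95% interval −0.32 to −0.13, limma adjusted p = 0.0043), so Ifi27 fell without being a DEG, and 4105 tested genes (32.8%) had a lower log2 fold change. The change of Ifi27l2a minus that of Ifi27 was −4.43 on the log2 scale when the ratio within each library was fitted (95% interval −4.78 to −4.09, limma adjusted p = 3.5e-06, a comparison added after the values were seen).

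Ifi27l2b was listed at 0 in 5 libraries and at 0.07 TPM in pLV-SEMA6A replicate 3, and was not tested. Ifi27l2a and Ifi27l2b shared 6.00% of the 31-base stretches of Ifi27l2a transcripts, and Ifi27 shared none with any gene.

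The summed level of the ISG12 family was 586 TPM ± 14.6 (SD, n = 3) without SEMA6A and 295 TPM ± 7.04 (SD, n = 3) with it. Ifi27l2a made up 41.5%, 43.8% and 44.3% of that sum in the pLV-Control libraries and 3.69%, 2.36% and 3.36% in the pLV-SEMA6A libraries. Nearly all ISG12 transcripts left in the pLV-SEMA6A group were therefore those of Ifi27, and leaving out any 1 library kept the difference in share at 39.5 to 40.9 percentage points.

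**Figure D2:**
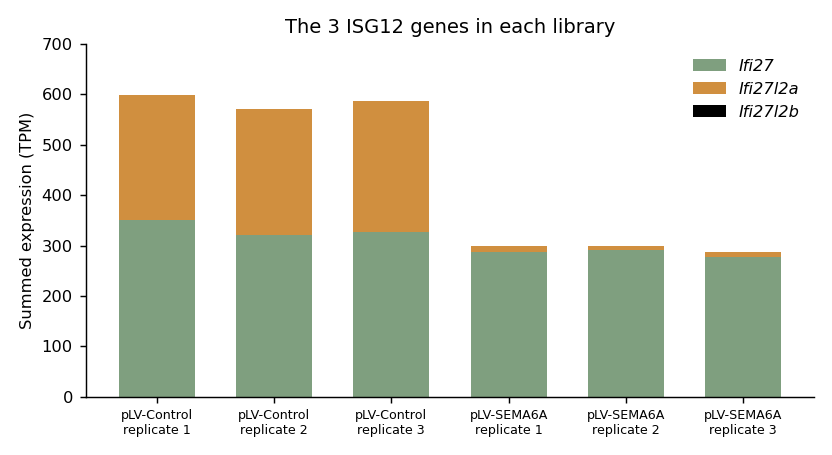
Summed TPM of the ISG12 genes in each library as stacked bars from 0, with Ifi27, Ifi27l2a and Ifi27l2b as the parts. The Ifi27 part is 277 to 350.5 TPM in all 6 libraries, while the Ifi27l2a part is at least 249 TPM in pLV-Control and at most 11.0 TPM in pLV-SEMA6A libraries.

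Ifi44 fell with the second-lowest log2 fold change of the listed genes, and its relative Ifi44l was hardly listed at all. They are neighbours on the minus strand of chromosome 3, Ifi44 at chr3:151730922-151749960 and Ifi44l at chr3:151758737-151762892, with 8777 bases between them. The 3 control libraries gave 310.2, 316 and 326 TPM for Ifi44, and the SEMA6A libraries 37.7, 35.4 and 32.1 TPM. In pLV-Control its range overlapped that of Ifi27, the highest of the listed genes, and in pLV-SEMA6A it stood at 11.0% of its pLV-Control mean. The log2 fold change was −3.15 (SE 0.06, 95% interval −3.29 to −3.00, limma adjusted p = 5.4e-07). It ranked 15th from the lowest among tested genes, but 29th without pLV-Control replicate 2, 33rd without pLV-Control replicate 3, 23rd without pLV-SEMA6A replicate 3 and 73rd with a pseudocount of 0.1. Ifi44l was listed at 0.05 TPM in pLV-Control replicate 3 and at 0 in the other 5 libraries, and was not tested. The promoter stretch printed above for Ifi44l held the shorter ISRE form like the others.

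Isg20 (chr7:78913424-78920396, plus strand) fell to 51.8% of its pLV-Control level. Its values were 79.0, 79.5 and 76.5 TPM in pLV-Control against 38.6, 41.1 and 42.0 TPM in pLV-SEMA6A, with a wide gap between the groups. The log2 fold change was −0.93 (SE 0.04, 95% interval −1.03 to −0.83, limma adjusted p = 1.6e-05). The related exonucleases Aen, Isg20l2 and Rexo4 were not DEGs. Aen, the neighbour of Isg20 at 2.2 kb, rose by 0.36 on the log2 scale (adjusted p = 0.010), and Isg20l2 (0.12, adjusted p = 0.091, and 0.22 with adjusted p = 0.013 once libraries were centred) and Rexo4 (−0.02, adjusted p = 0.85) did not pass the test.

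The partners Nmi and Ifi35 both fell, to different extents. Nmi (chr2:51948487-51973494, minus strand) went from 43.3, 48.4 and 43.3 TPM in pLV-Control to 16.3, 17.9 and 18.5 TPM in pLV-SEMA6A, or 39.1% of its pLV-Control mean. Its log2 fold change was −1.31 (SE 0.07, 95% interval −1.47 to −1.15, limma adjusted p = 2.8e-05). Ifi35 (chr11:101448407-101458698, plus strand) went from 62.3, 58.7 and 56.4 TPM in pLV-Control to 34.2, 30.1 and 33.6 TPM in pLV-SEMA6A, or 55.2% of its pLV-Control mean. Its log2 fold change was −0.84 (SE 0.06, 95% interval −0.99 to −0.69, limma adjusted p = 0.00011). The pLV-SEMA6A libraries of both genes lay well below the pLV-Control libraries. Of the 31-base stretches of Ifi35 transcripts, 12.8% occur in other genes, mainly the antisense gene Gm11626, which overlaps it, and without stated strand information reads of the pair cannot be told apart. Gm11626 was listed at 0 in every library.

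Xaf1 (chr11:72301629-72313733, plus strand) fell to 25.9% of its pLV-Control level. Its values were 127, 131 and 143 TPM in pLV-Control against 38.9, 31.3 and 34.0 TPM in pLV-SEMA6A, with no overlap. The log2 fold change was −1.92 (SE 0.08, 95% interval −2.12 to −1.72, limma adjusted p = 1.5e-05).

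Lgals3bp (chr11:118392751-118402092, minus strand) fell to 31.5% of its pLV-Control level. The values of 189, 173 and 172 TPM in pLV-Control compare with 57.0, 55.5 and 55.8 TPM in pLV-SEMA6A, the latter close together. The log2 fold change was −1.65 (SE 0.04, 95% interval −1.75 to −1.55, limma adjusted p = 2.0e-06).

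An exact permutation test of 3 libraries against 3, two-sided, gave p = 0.1 for each of the 8 tested genes, the smallest value this design allows. The adjusted p-values draw instead on each gene's own spread combined with a spread estimated over all genes.

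**Figure D3:**
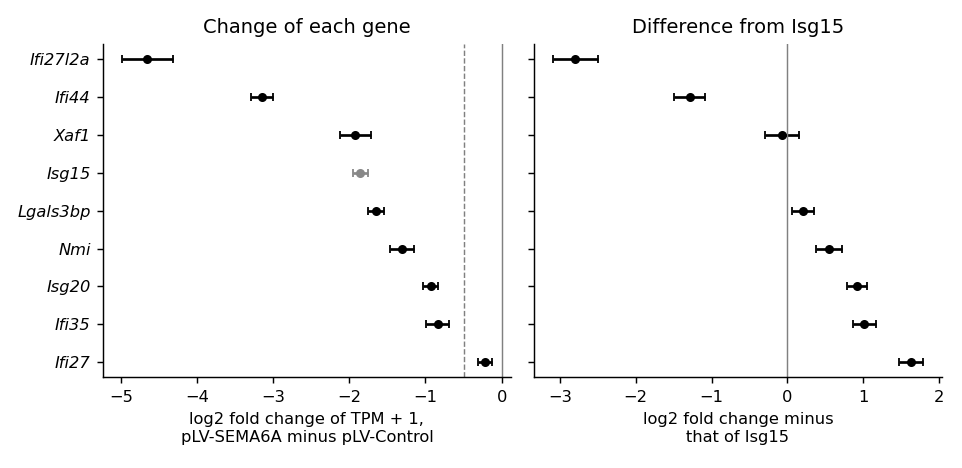
Left, log2 fold change (pLV-SEMA6A minus pLV-Control, log2(TPM + 1)) of the 8 tested genes and Isg15, with bars for the 95% interval from limma and a dashed line at the DEG minimum of −0.5, and right, that value minus the one of Isg15. On the left the values run from −4.65 for Ifi27l2a to −0.22 for Ifi27 and no interval reaches 0, and on the right only the interval of Xaf1 (−0.29 to 0.16) spans 0.

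The order of the genes by level changed with SEMA6A overexpression. TPM is scaled by length, so levels can be compared between genes. In pLV-Control, Ifi27 and Ifi44 (333 and 318 TPM) had overlapping ranges, and Ifi27l2a (253), Lgals3bp (178), Xaf1 (134), Isg20 (78.3), Ifi35 (59.2) and Nmi (45.0 TPM) followed without overlap between neighbours. In pLV-SEMA6A, Ifi27 (285 TPM) stood far above Lgals3bp (56.1) and Isg20 (40.6 TPM). Ifi44 (35.1), Xaf1 (34.7) and Ifi35 (32.7 TPM) overlapped, and Nmi (17.6) and Ifi27l2a (9.23 TPM) were the lowest of the tested genes. Ifi27l2a thus moved from place 3 to place 8. The 10 genes together summed to 1398 TPM ± 17.6 (SD, n = 3) without SEMA6A and 511 TPM ± 9.59 (SD, n = 3) with it, or 0.142% and 0.0523% of the listed TPM.

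Isg15 (chr4:156199424-156200818, minus strand), the gene of the study's axis, served as the measure beside which each gene was set. Isg15 went from 611, 625 and 585 TPM in pLV-Control to 165, 160.1 and 175 TPM in pLV-SEMA6A. Its log2 fold change was −1.86 (SE 0.04, limma adjusted p = 9.6e-07), and of its own 31-base stretches 13.1% occur in other genes. The difference itself was tested, with the ratio of each gene to Isg15 in the same library fitted over 12509 genes. Every one of these tests used the same Isg15 values, so they are not independent of each other. Their adjusted p-values all share the spread of Isg15 between libraries. The change differed from that of Isg15 in 7 of the 8 genes, as it did in 97.7% of all genes, most of which did not fall like Isg15.

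Ifi27l2a and Ifi44 fell more than Isg15, which was so for 0.336% of all genes. The difference was −2.80 on the log2 scale for Ifi27l2a (95% interval −3.09 to −2.50, limma adjusted p = 1.0e-07) and −1.29 for Ifi44 (95% interval −1.49 to −1.08, adjusted p = 1.2e-06).

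Another 5 fell less than Isg15, where 97.4% of all genes fell less or rose. The difference was 0.21 for Lgals3bp (95% interval 0.07 to 0.35, limma adjusted p = 0.011), 0.55 for Nmi (0.38 to 0.72, adjusted p = 8.3e-05) and 0.92 for Isg20 (0.79 to 1.06, adjusted p = 6.4e-07). It was 1.02 for Ifi35 (0.87 to 1.17, adjusted p = 6.9e-07) and 1.64 for Ifi27 (1.48 to 1.79, adjusted p = 5.8e-08).

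Xaf1 was the one gene whose change was not shown to differ from that of Isg15. The difference was −0.06 on the log2 scale (95% interval −0.29 to 0.16, limma adjusted p = 0.53), which still allows a difference of that size in either direction. Without pLV-Control replicate 3 it was 0.011 (adjusted p = 0.91).

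**Figure D4:**
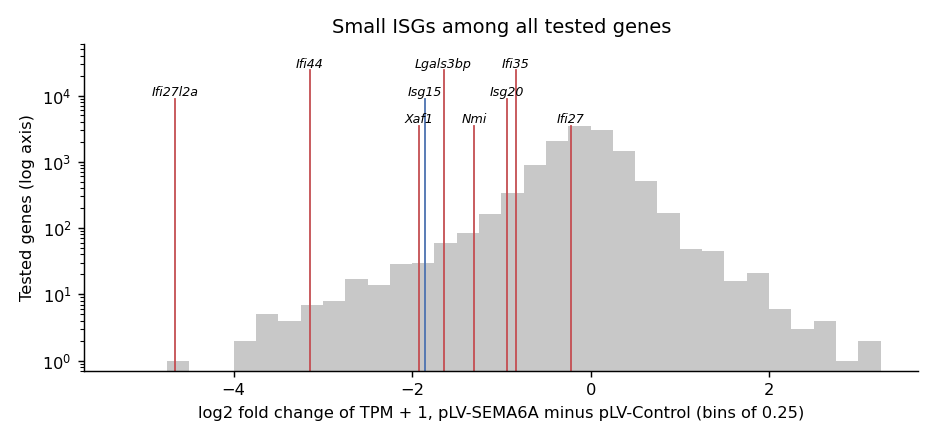
Number of tested genes (log axis) in bins of log2 fold change (pLV-SEMA6A minus pLV-Control), with marks for the 8 tested genes and Isg15 and without the bins at the far ends. The bulk of the 12510 genes lies around the median of −0.06, Ifi27 lies near it at −0.22, and Ifi27l2a lies at the low end at −4.65.

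Genes of the interferon pathway upstream of these promoters were read from a list of 16 receptors, kinases, factors and brakes, all of which could be tested. In the pLV-SEMA6A group 8 fell as DEGs and none rose as a DEG, beside 10.8% and 5.12% of all tested genes. The median log2 fold change was −0.52. At the adjusted p alone, 14 were lower and 1, the kinase Jak1, was higher (0.19), beside 28.2% lower and 19.5% higher among all tested genes. Socs1, a brake on JAK kinases, did not pass (0.24, adjusted p = 0.18).

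Among the factors, Irf7, which drives interferon genes, fell from 213 TPM ± 3.12 to 23.6 TPM ± 1.85 (SD, n = 3 each). Its log2 fold change was −3.13 (SE 0.06, limma adjusted p = 5.0e-07), close to that of Ifi44. Stat2 (−1.71) and Irf9 (−1.21) fell as well, as did Irf1 (−1.13), a factor induced by interferon. Usp18, which removes Isg15 from proteins and dampens the receptor, fell from 154 TPM ± 5.56 to 31.1 TPM ± 0.84 (SD, n = 3 each), with a log2 value of −2.27. The kinase Tyk2 (−0.88) and the receptor chain Ifnar2 (−0.64) were also lower DEGs. The other receptor chains, Ifnar1, Ifngr1 and Ifngr2, fell by 0.15, 0.23 and 0.18 on the log2 scale, below the minimum change of a DEG. With each library centred on its median, the list still held 8 lower DEGs, where 7.68% of all tested genes were lower DEGs. Ifnar1, Ifngr2 and Socs3 then no longer passed at the adjusted p.

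Proteins known to act with the listed genes, and their relatives, formed a list of 22 genes, of which 21 could be tested. Birc3 was below the filter. In the pLV-SEMA6A group 4 fell as DEGs and none rose as a DEG, beside 10.8% and 5.12% of all tested genes. The median log2 fold change was 0.04. At the adjusted p alone 5 were lower and 8 higher, where 28.2% of all tested genes were lower and 19.5% higher by that rule. After centring each library on its median these counts were 4 and 10, where 19.8% of all tested genes were lower and 26.9% higher. The number of DEGs stayed the same, beside 7.68% lower and 8.01% higher DEGs among all tested genes.

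The ISG12 partner Nr4a1, a nuclear receptor, fell from 11.0 to 6.11 TPM (log2 fold change −0.76, SE 0.10, limma adjusted p = 0.0015). Trim21, a ubiquitin ligase that binds Nmi and Ifi35, fell from 12.2 to 5.89 TPM (−0.95, SE 0.12, adjusted p = 0.0012). In the Xaf1 pathway, Birc2, an inhibitor of apoptosis, and Casp9, the initiator caspase, fell by 0.72 and 0.65 on the log2 scale. Xiap, the target of Xaf1, was listed at 15.2 and 15.4 TPM on average (0.02, adjusted p = 0.84). Diablo, which antagonises Xiap, rose by 0.37, below the minimum change of a DEG.

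Lgals3bp and its galectin ligand moved in opposite directions. Lgals3, galectin-3, rose from 786 TPM ± 40.6 to 1032 TPM ± 31.2 (SD, n = 3 each), by 0.39 on the log2 scale (SE 0.04, limma adjusted p = 0.0005). Lgals1, galectin-1, rose by 0.22 from a level of 6202 TPM. Both rises were smaller than the minimum change of a DEG. Itgb1, an integrin subunit, was lower by 0.09 on the log2 scale (adjusted p = 0.013), but higher by 0.01 (adjusted p = 0.81) once each library was centred on its median.

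The nearest tested genes on each side of the 10 genes were 14 distinct genes. None was a DEG, where 10.8% of all tested genes were lower DEGs and 5.12% higher DEGs. At the adjusted p alone 5 of the 14 passed, Mfge8 (−0.16) and Rpl27 (−0.17) lower and Aen (0.36), Mybbp1a (0.31) and Timp2 (0.27) higher, where 28.2% of all tested genes were lower and 19.5% higher. With centred libraries 1 was lower and 5 were higher, where 19.8% of all tested genes were lower and 26.9% higher. Again none was a DEG. The ISG12 genes lie between Ddx24 and Ppp4r4. Ddx24, an RNA helicase gene 8.4 kb from Ifi27 and 16.3 kb from Ifi27l2a, was listed at 72.9 to 75.3 TPM in all 6 libraries (0.00, adjusted p = 0.91). Ppp4r4, on the other side, did not pass the test either (−0.29, adjusted p = 0.27). Vat1, on the opposite strand with its nearer edge 47 bases from the end of Ifi35, and Cant1, 4.2 kb from Lgals3bp, stood at −0.09 and −0.03.

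Around Ifi44 the nearest tested genes were further off. Gm43573, an antisense gene at 2727 kb, was listed at 0.59 to 3.05 TPM in pLV-Control and 0.13 to 1.83 TPM in pLV-SEMA6A, overlapping ranges (−0.68, adjusted p = 0.28). Gipc2, at 344 kb, was listed at 2.29 to 2.61 TPM in pLV-Control against 0.76, 1.14 and 2.31 TPM in pLV-SEMA6A (−0.58, adjusted p = 0.096). Without pLV-SEMA6A replicate 3, the high one, it was a DEG (−0.83, adjusted p = 0.013).

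**Figure D5:**
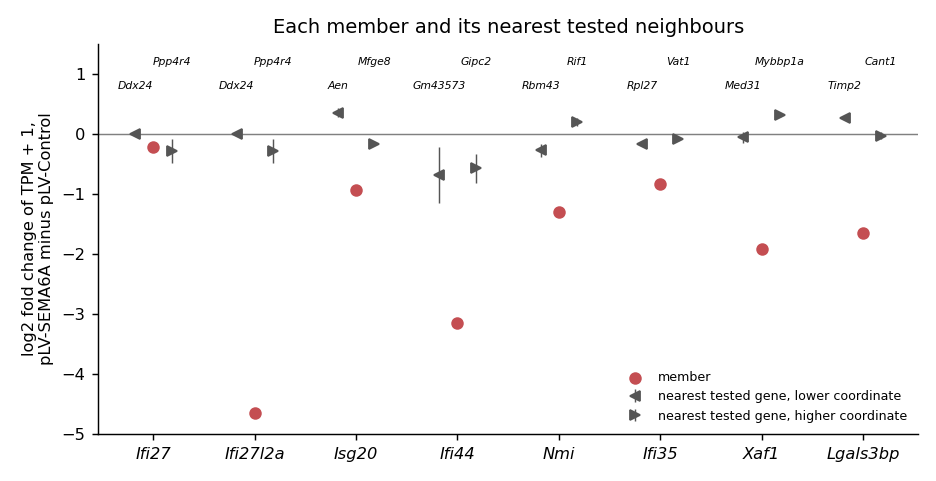
log2 fold change (pLV-SEMA6A minus pLV-Control) of each tested gene of the list beside its nearest tested neighbour on either side, with bars of 1 SE for the neighbours. The neighbours lie within 0.7 of 0, while 6 of the 8 listed genes lie below −0.9.

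Centring each library on its median moved every log2 fold change up by 0.09, after which 7.68% of all tested genes were lower DEGs and 8.01% higher DEGs. The same 7 of the 8 listed genes were lower DEGs on that scale, and the change of Ifi27 was −0.13 (limma adjusted p = 0.029).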

How the data were processed

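RNA-seq of SL4 cells compared 3 libraries labelled as without and 3 labelled as with overexpression of SEMA6A. They are called pLV-Control and pLV-SEMA6A here, names taken from the study and not from the labels. The authors selected poly-A mRNA, sequenced it on an Illumina platform and deposited TPM per library with 2 decimals, plus group means that were not used. The submitters' processing notes name Bowtie2, HISAT, RSEM and the build mm39, without roles or versions. The annotation is not given in the sources used here. RSEM estimates transcript shares, so reads of similar genes may be divided between them.

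Read counts were not analysed here, so the test was limma (version 3.58.1, in R version 4.3.3) on log2(TPM + 1), with its trend option, the group as the only term, a minimum mean of 1 TPM and Benjamini-Hochberg adjustment over 12510 genes. The authors used DESeq2 for their own comparison of these libraries. The supplement gives limma and the thresholds used here in a separate section on functional enrichment. The steps were tested on simulated data. Depth is unknown from TPM, so no detection limit was computed, and a value of 0 is given only as listed.

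Positions come from GENCODE M21 on GRCm38, matched by Ensembl identifier for 52093 of 53700 genes (97.0%), and promoters from RefSeq on GRCm38.p6. No coordinates were converted. Shared 31-base stretches were counted over GENCODE transcripts.

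The genes and lists were chosen with earlier results of these data known. Named are all 10 genes, Isg15, Sema6a, DEGs of the pathway and partner lists, and the nearest neighbours. Other genes named from those lists, including Jak1, Socs1, Diablo, Lgals1, Lgals3, Itgb1, Xiap, Isg20l2, Rexo4 and the receptor chains, were chosen after their values were seen. The alternatives were a pseudocount of 0.1, no filter, a minimum mean of 5 TPM, other minimum changes, centring, the replicate block and leaving out each library. Results of some genes of these lists are not reported here.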

Additional observations from a re-analysis of the deposited data

How the results depend on the processing

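Of 260 alternative values computed, 252 kept their direction and their side of the threshold, or stayed within 1.5 times the count. For the ISG12 share the limit was instead the larger SD of the groups. The count of listed genes whose change differed from that of Isg15 went from 7 to 9 without a filter. Ifi27l2b and Ifi44l, both near 0 TPM, were then tested as well. The 7 lower DEGs among the 10 genes were also 7 under each alternative except other minimum changes, with 8 under no minimum and 5 under a minimum of 1 on the log2 scale. Without a minimum, DEGs over all genes went from 1987 to 5959, in the interferon pathway list from 8 to 15, in the partner list from 4 to 13 and among neighbours from 0 to 5. With a minimum of 1 there were 385 over all genes and 0 in the partner list. Among neighbours, leaving out 1 library gave 0 to 1, the 1 being Gipc2 without pLV-SEMA6A replicate 3. The difference between Xaf1 and Isg15 turned from −0.06 to 0.011 without pLV-Control replicate 3, within a range of −0.15 to 0.011 over the libraries left out. The cause was not tested.

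Same-numbered libraries did not deviate together (correlations from −0.08 to −0.02, mean −0.06, against a mean of 0.03 for other numbers), so the replicate numbers were not taken as pairs. With the replicate block 1924 genes were DEGs, 7 of the listed genes among them, and no call on a listed gene changed. The adjusted p of Ifi27l2a became 0.00017 and that of Ifi44 0.0001. Tests that need read counts were not run. The unknown depth limits what a value near 0 can show, as for Ifi27l2b and Ifi44l, whose no-filter log2 fold changes of 0.03 and −0.02 (adjusted p = 0.57 and 0.63) did not pass.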
